A study of Mus musculus with 8 samples.

Results

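The Hox genes of mouse adipocytes from inguinal fat were followed across an shRNA against PRDM16 and a drug that activates PPARγ. Members were taken by symbol: every gene named Hoxa, Hoxb, Hoxc or Hoxd with a number that had a probe set of its own on the array. That gave 31 genes with 37 probe sets, out of 12393 genes measured and 39 mouse Hox genes in the RefSeq gene table. The other 8 had no probe set that was paired with them alone and were not analysed here, except through 3 probe sets annotated to a pair of neighbours.

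RNA came from adipocytes grown out of stromal-vascular (SV) cells of the inguinal depot of male C57BL/6J mice. All cells carried an shRNA: sh-scr, the control, or sh-PRDM16, against a co-regulator that drives brown fat genes. Each was kept with no agent or with rosiglitazone at 1 µM, an agonist of the nuclear receptor PPARγ, and each of the 4 groups had 2 arrays, 8 in all. The labels call the arrays biological replicates, while the age of the animals and whether cultures were separate were not given in the sources used here, so p-values measure the spread between arrays, which may be technical. Every sample came from 1 depot, so levels could not be set against another fat, and all comparisons here are between shRNAs and drug states of inguinal cells.

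Hox genes encode homeodomain transcription factors. They lie in clusters named A to D, in which genes are numbered by paralog group from the 3′ end, and low numbers are switched on earlier and further towards the head in the embryo than high ones. Stromal cells and preadipocytes keep a depot's Hox pattern in culture, and Hoxc8 and Hoxc9 are known as genes that separate white from brown fat. In the nucleus Hox proteins bind DNA with Pbx and Meis partners. Polycomb complexes keep silent members off and trithorax complexes keep active ones on.

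Of the 7 genes whose RNA passed the test in some comparison, Hoxa9, Hoxb4 and Hoxd9 had a promoter window in the RefSeq table of build GRCm38.p6, and the 250 bases before their start are shown because drug and shRNA comparisons turned on these genes. Hoxa4, Hoxb9, Hoxc6 and Hoxc9 matched no window. The windows lie at chr6:52227371-52227620 on the minus strand, chr11:96318017-96318266 on the plus strand and chr2:74697513-74697762 on the plus strand, in that order of genes. Each is written 5′ to 3′ along its gene, and capitals mark each CG, the dinucleotide that DNA methylation acts on.
Hoxa9: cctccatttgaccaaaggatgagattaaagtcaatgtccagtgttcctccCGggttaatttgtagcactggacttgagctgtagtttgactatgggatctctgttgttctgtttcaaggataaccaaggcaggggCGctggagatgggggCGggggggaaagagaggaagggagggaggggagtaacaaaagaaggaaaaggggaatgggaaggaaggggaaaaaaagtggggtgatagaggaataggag
Hoxb4: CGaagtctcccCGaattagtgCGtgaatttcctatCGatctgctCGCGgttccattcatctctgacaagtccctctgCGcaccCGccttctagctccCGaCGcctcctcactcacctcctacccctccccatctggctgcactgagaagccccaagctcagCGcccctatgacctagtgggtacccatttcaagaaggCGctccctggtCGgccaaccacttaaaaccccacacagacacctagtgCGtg
Hoxd9: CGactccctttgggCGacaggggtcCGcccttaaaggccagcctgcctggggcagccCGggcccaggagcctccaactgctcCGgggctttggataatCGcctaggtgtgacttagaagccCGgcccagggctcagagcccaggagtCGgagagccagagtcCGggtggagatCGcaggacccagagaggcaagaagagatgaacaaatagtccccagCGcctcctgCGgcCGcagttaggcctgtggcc
The Hoxa9 window held 3 CG and was 49.6% C or G. That of Hoxb4 held 14 CG at 58.0% C or G, and that of Hoxd9 held 13 at 65.2%. The median of all 32851 windows was 6 CG and 52.4% C or G. The 20 windows of 18 Hox genes had a median of 13 CG. AGGTCA, the half-site of many nuclear receptors, was searched on both strands and matched in the Hoxb4 window (on the opposite strand, as tgacct), in 4 of the 20 Hox windows and in 14% of all windows. AGGTCANAGGTCA, the repeat that PPARγ binds with its partner RXR and which contains the shorter motif, matched in 0 of the 20 and in 0.0335% of all windows. A match is a string of letters and not a shown site, and these windows say nothing of enhancers.

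The arrays gave medians from 101 to 136, with replicate arrays correlated at r = 0.991 or more across probe sets, and 13 Hox genes stood above the floor. The floor was a mean intensity of 64 over all 8 arrays for a gene's highest probe set, since no detection calls were used. Of the 137 probe sets of genes not expected in fat (odorant, vomeronasal and taste receptors, lens crystallins and the like), 1 (of Mbp) reached 64 and their median was 5.6. Of all genes, 62.8% reached it. All 8 adipocyte genes measured, such as Adipoq and Fabp4, were above the floor. So were all 8 smooth muscle and pericyte genes and 9 of 11 preadipocyte and fibroblast genes. These levels therefore do not single out adipocytes. No probe set was paired with Prdm16, so the knockdown was not checked here.

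The Hox genes above the floor were Hoxa5, Hoxa9, Hoxa10, Hoxb2, Hoxb4, Hoxb6, Hoxb9, Hoxc4, Hoxc6, Hoxc8, Hoxc9, Hoxc13 and Hoxd8. By cluster these were 3 of 9 measured in Hoxa (chromosome 6), 4 of 9 in Hoxb (chromosome 11), 5 of 6 in Hoxc (chromosome 15) and 1 of 7 in Hoxd (chromosome 2). Along the clusters they were 1 of 6 in paralog groups 1 to 3, 11 of 18 in groups 4 to 10 and 1 of 7 in groups 11 to 13, with these bands chosen after the values were seen. Most genes above the floor thus lay in the middle of the clusters. The gene above it at the 5′ end was Hoxc13, which is known from hair and nail keratins. Hoxc10, Hoxc11 and Hoxc12 had no probe set of their own, so the part of Hoxc between Hoxc9 and Hoxc13 was not read.

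**Figure D1:**
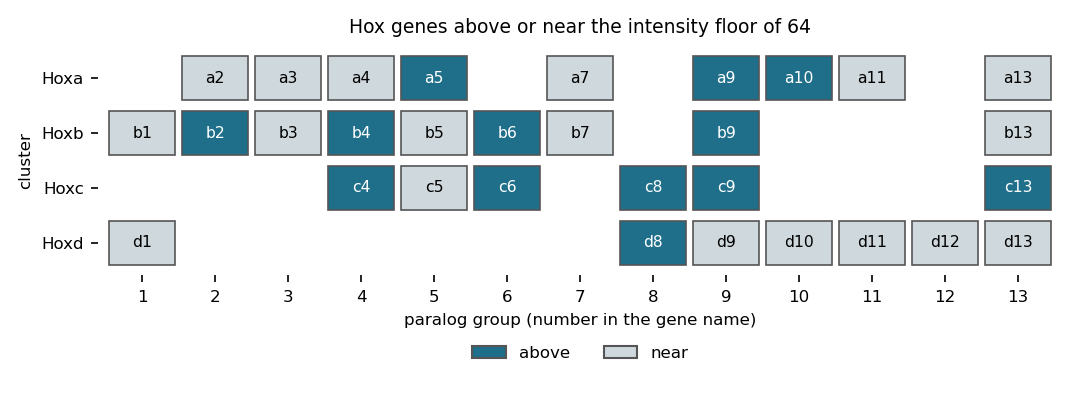
The 31 measured Hox genes by cluster (rows) and paralog group (columns), filled where the mean intensity over 8 arrays of the highest probe set was 64 or more and grey where it was lower. The 13 filled genes lie mostly in groups 4 to 10, and 5 of the 6 measured Hoxc genes are filled.

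The other 18 genes were near the floor, with means from 1.5 to 48.5. Hoxa2, Hoxa13, Hoxb1, Hoxb7, Hoxb13, Hoxd1, Hoxd10, Hoxd11, Hoxd12 and Hoxd13 were among the dimmest 25% of genes and were not tested. Hoxa3, Hoxa4, Hoxa7, Hoxa11, Hoxb3, Hoxb5, Hoxc5 and Hoxd9 lay higher and were tested. Just inside the floor were Hoxa5 (mean 70.2) and Hoxc4 (100.1), just outside Hoxa3 (48.5) and Hoxa4 (47.0). With the floor at 32 instead, 20 genes were above it. Dim values do not show that a gene is silent. Which genes were above hardly moved with the groups: 12 were above in every group's mean and 17 near in every group's. The other two were Hoxa4, near the floor in both untreated groups and above it in both treated ones, and Hoxa5, which did the opposite.

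Hoxc8 and Hoxc9 are the members best known from white fat. Hoxc8, which patterns the trunk skeleton, read 1318 and 1513 in untreated sh-scr arrays, 1199 and 1121 in treated sh-scr, 1434 and 1133 in untreated sh-PRDM16 and 1224 and 1363 in treated sh-PRDM16 arrays. The treated sh-scr arrays were below the untreated sh-scr and the treated sh-PRDM16 arrays, and untreated sh-PRDM16 arrays overlapped each other group. Its log2 change was -0.28 with rosiglitazone in sh-scr cells (95% interval -0.63 to 0.07) and 0.02 in sh-PRDM16 cells (-0.33 to 0.37). Against sh-scr, sh-PRDM16 cells differed by -0.15 untreated (-0.49 to 0.20) and by 0.15 treated (-0.19 to 0.50). Each interval spans 0. All log2 values are of intensity + 16.

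Hoxc9, which organises motor neurons of the thoracic cord, read 594 and 635 untreated and 468 and 333 treated in sh-scr cells. In sh-PRDM16 cells it read 548 and 494 untreated and 459.6 and 532 treated, so that those groups overlapped. Hoxc6, a gene of the upper trunk, read 331 and 467 untreated and 232 and 204 treated in sh-scr cells, with no overlap. In sh-PRDM16 cells Hoxc6 read 347 and 352 untreated and 299 and 275 treated, also without overlap but with a smaller step. These are values of its brightest probe set, 1427362_x_at. On 1427361_at the sh-PRDM16 arrays overlapped, at 259 and 185.5 untreated and 226 and 239 treated (log2 change 0.08).

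Hoxc4 and Hoxc13 passed no test on the deposited scale. Hoxc4 read 90.2 and 106 in untreated and 84.2 and 79.3 in treated sh-scr arrays. In sh-PRDM16 cells Hoxc4 read 129.5 and 113 untreated and 96.9 and 102 treated, so both untreated arrays lay above all others. Hoxc13 read 236 and 198 untreated and 177 and 134 treated in sh-scr cells, and 215.5 and 183 untreated and 162 and 198 treated in sh-PRDM16 cells. It was lower with the drug in sh-scr cells without overlap, and overlapped in sh-PRDM16 cells. Hoxd8, the 1 Hoxd gene above the floor, had the narrowest range of the 13: from 248 to 330.5 over all arrays, the highest 1.33 times the lowest.

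Of the Hoxa genes, Hoxa9, a lumbar and limb patterning gene, read 666 and 814 untreated and 870.1 and 838 treated in sh-scr cells, and 613 and 514 untreated and 800.4 and 886 treated in sh-PRDM16 cells. It was higher with the drug in both lines, without overlap. Hoxa10, its neighbour, which sets lumbar identity, read 289 and 274 untreated and 213 and 198 treated in sh-scr cells, and 224 and 174 untreated and 180.3 and 148 treated in sh-PRDM16 cells. Hoxa10 therefore had its highest 2 arrays in untreated sh-scr cells, and sh-PRDM16 cells were below sh-scr cells in both drug states. Hoxa5, needed for lung and neck skeleton, read between 40.5 and 87.8, and treated sh-PRDM16 cells alone (40.5 and 84) spanned nearly that whole range.

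Of the Hoxb genes, Hoxb9, a gene of the thoracic ribs, read 174 and 167 untreated and 135 and 101 treated in sh-scr cells, against 261 and 190 untreated and 229 and 254 treated in sh-PRDM16 cells. All 4 sh-PRDM16 arrays lay above all 4 sh-scr arrays. Hoxb4, known from blood stem cells, read 134.5 and 163 untreated and 114 and 127.5 treated in sh-scr cells, against 155 and 169 untreated and 194 and 184 treated in sh-PRDM16 cells. These are values of its brighter probe set, 1460379_at, which was lower with the drug in sh-scr cells (-0.27, adjusted p = 0.152) and higher in sh-PRDM16 cells (0.20, adjusted p = 0.40), without overlap in either but with neither change passing. After each array was centred on its median these were 0.03 and 0.18, both above 0. The dimmer 1451761_at read 42.4 and 50 untreated and 46.8 and 59.8 treated in sh-scr cells, and 40.8 and 29.6 untreated and 58.1 and 77.6 treated in sh-PRDM16 cells, so its means were higher with the drug in both lines. Hoxb2, a hindbrain gene, read between 214 and 370.2, and Hoxb6 between 186 and 266.

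**Figure D2:**
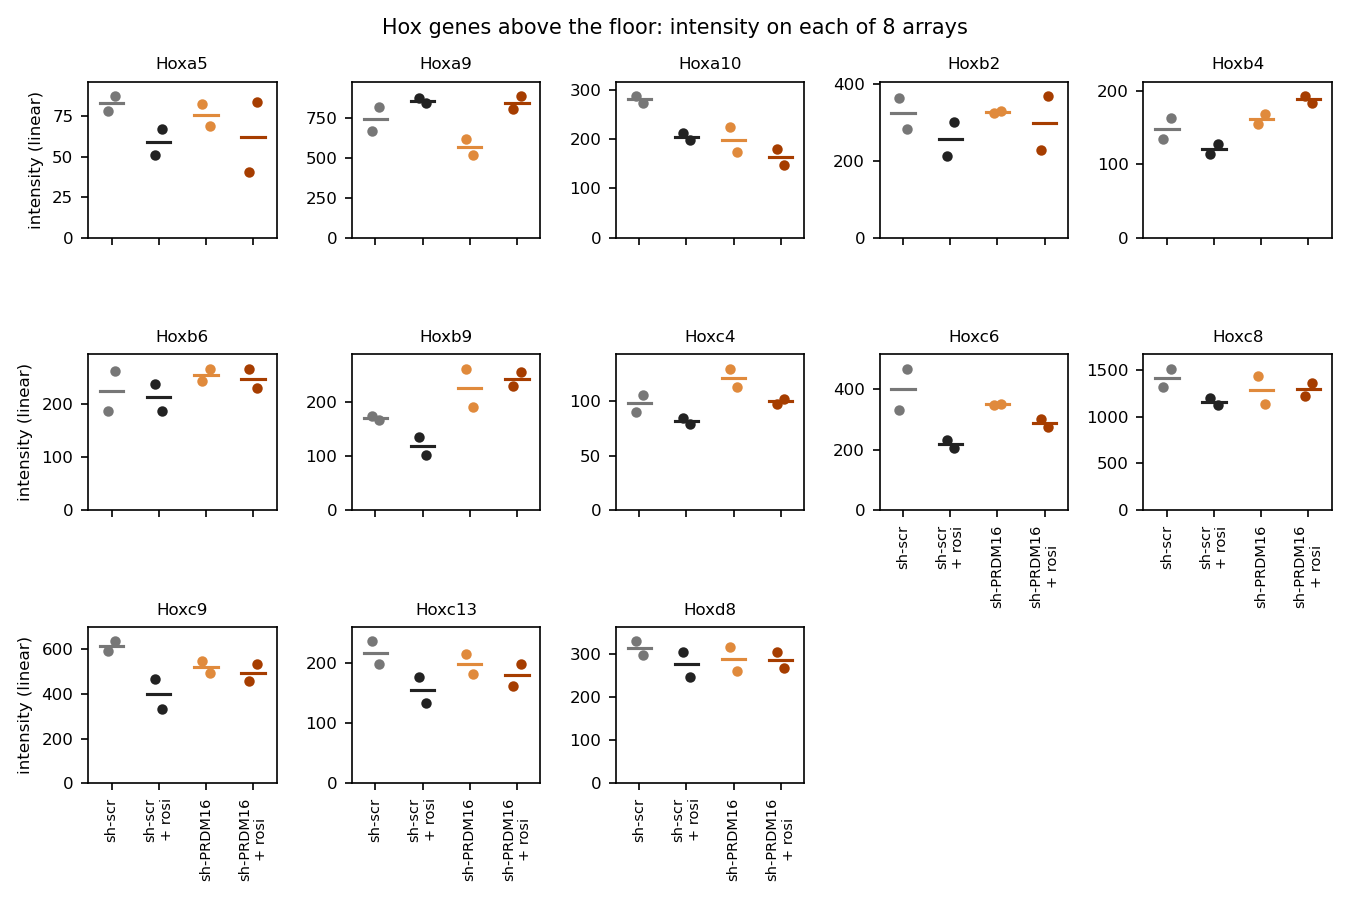
Intensity (linear, from 0, each panel on its own scale) of the 13 Hox genes above the floor on each of 8 arrays; points are arrays and bars the mean of 2. Hoxb9 is higher in all 4 sh-PRDM16 arrays (190 to 261) than in all 4 sh-scr arrays (101 to 174), and Hoxc6 is lowest in the treated sh-scr arrays (204 and 232).

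Over the 13 genes the highest array was between 1.33 and 2.58 times the lowest, with a median of 1.73, which stands beside 1.71 for all 7782 genes above the floor. The spread of the 13 over single arrays, replicates included, was thus close to that of all genes above the floor, the 13 among them.

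In sh-scr cells rosiglitazone lowered Hoxc6, Hoxc9 and Hoxd9 and raised Hoxa4 on the deposited scale. Hoxc6 fell by 0.81 (SE 0.17, adjusted p = 0.00872), Hoxc9 fell by 0.62 (SE 0.17, adjusted p = 0.0231) and Hoxd9 fell by 0.72 (SE 0.16, adjusted p = 0.0107), all in log2 units. Hoxd9, which shapes the forelimb with Hoxa9, is near the floor: 49.4 and 45.7 untreated and 19.0 and 26.7 treated, against 25 and 34.1 untreated and 34.4 and 41.7 treated in sh-PRDM16 cells. Hoxa4 rose by a log2 of 1.13 (SE 0.25, adjusted p = 0.011). So 1 of 21 Hox genes tested rose and 3 fell, where 5.2% and 32.2% of all 9294 genes did and 37.4% were called in all. By intensity, 13 of the 21 were lower and 2 higher without overlap, beside 64.7% and 12.4% of all genes.

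The falls came with a shift of all genes. The median change of the 21 Hox genes was -0.32 and that of all genes -0.31. After each array was centred on its median, Hoxc6 was at -0.52 (adjusted p = 0.0571), Hoxc9 at -0.32 (0.111) and Hoxd9 at -0.42 (0.151), so no fall passed. Of all genes, 26.1% were then called, 14.2% as higher and 11.9% as lower. Hoxa4 was still higher (1.42, adjusted p = 0.0109), and Hoxa9 was called as well at 0.50 (0.00822). Whether the shift arose in the cells or in array scaling was not tested. Without treated sh-scr replicate 2, Hoxc9 was at -0.38 and lost its call (adjusted p = 0.178). It also lost it without untreated sh-scr replicate 1 (-0.66, adjusted p = 0.0636) or 2 (-0.57, 0.103), with a change close to that of all arrays. Hoxc6 lost its call without untreated replicate 2 (-0.57, adjusted p = 0.065) or treated replicate 2 (-0.72, 0.0545). Hoxd9 lost it without untreated replicate 1 (-0.67, adjusted p = 0.0526) or treated replicate 1 (-0.57, 0.0541).

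Preadipocyte and fibroblast markers moved with this comparison. Of 10 tested, such as Pdgfra, 8 fell, and their summed intensity went from between 53242 and 54219 untreated to between 37524 and 39617 treated (9 of 11 measured above the floor, Dlk1 and Dpp4 near it). Smooth muscle and pericyte markers did likewise, with 6 of 8 falling. Both counts stand beside 32.2% of all genes that fell. In sh-PRDM16 cells 2 of the 10 and 4 of the 8 fell, beside 3.31% of all genes. After centring, 5 and 4 fell in sh-scr cells, beside 11.9% of all genes, and 7 and 4 in sh-PRDM16 cells, beside 9.87%. On the deposited scale 3 of 7 macrophage and leukocyte and 3 of 6 endothelial markers fell in sh-scr cells too. Of 8 adipocyte markers 1 rose and 2 fell there. Acta1, a skeletal muscle actin, fell in sh-scr cells as well (-1.33, adjusted p = 0.000987). Fewer cells of a type and less RNA per cell cannot be told apart in such bulk samples, and the part of these cells in the Hox values was not tested. RNA quality moved with the drug in both lines, as read from control probe sets at the 3′ and 5′ ends of a transcript. The log2 difference of 3′ over 5′ signal for beta-actin went from between 0.30 and 0.31 to between 0.38 and 0.49 in sh-scr cells, and from between 0.25 and 0.29 to between 0.33 and 0.34 in sh-PRDM16 cells. For Gapdh it went from between -0.43 and -0.41 to -0.35 on both arrays in sh-scr cells, and from between -0.44 and -0.40 to between -0.35 and -0.33 in sh-PRDM16 cells. Treated and untreated arrays did not overlap in any of these, and their part in the Hox values of either line was not tested.

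In sh-PRDM16 cells rosiglitazone raised Hoxa4 and Hoxa9. Hoxa4 rose by 1.12 (SE 0.25, adjusted p = 0.0188) and Hoxa9 by 0.57 (SE 0.15, adjusted p = 0.0359). No Hox gene fell. Thus 2 of 21 rose, beside 10.1% of all genes, with 3.31% falling and 13.4% called in all. The median of the 21 was -0.04 and of all genes 0.00. After centring, with 24.4% of all genes called (14.5% higher, 9.87% lower), Hoxc4 was also lower, at -0.27 (adjusted p = 0.0407). By intensity, 4 were higher and 3 lower without overlap, beside 27% and 23.6% of all genes. Hoxc6 and Hoxc9, called in sh-scr cells, were at -0.27 and -0.07 here, and neither passed.

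Hoxa4 rose in each line, and the difference between its responses was -0.012 (95% interval -0.82 to 0.79). Its probe set 1427354_at read 13.5 and 39.6 in untreated and 71.6 and 74.0 in treated sh-scr arrays, and 25.3 and 18.7 in untreated and 71.5 and 61.4 in treated sh-PRDM16 arrays. All 4 treated arrays lay above all 4 untreated ones. A second probe set of the gene, 1420226_x_at, read between 23.8 and 59.1 and did not follow: its change was 0.28 in sh-scr and -0.03 in sh-PRDM16 cells. The suffix x marks probes that can also match other transcripts, and the main Hoxc6 probe set, 1427362_x_at, carries it too. In sh-PRDM16 cells the Hoxa4 call was lost without untreated replicate 1 (adjusted p = 0.0614) or 2 (0.12) or treated replicate 1 (0.0769), and in sh-scr cells no left-out array ended it. Without untreated sh-scr replicate 1, the array at 13.5, the rise in sh-scr cells was 0.68 (adjusted p = 0.0423) in place of 1.13.

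The rise of Hoxa9 was likewise clearer on 1 of its probe sets. On 1421579_at it read 262 and 296 untreated and 254 and 279 treated in sh-scr cells, and 177 and 191 untreated and 204.5 and 296 treated in sh-PRDM16 cells. There the change was -0.06 in sh-scr cells and 0.39 in sh-PRDM16 cells, and neither was called. Both come from a limma fit of each probe set on its own. In that fit the brighter 1455626_at, at 0.57 in sh-PRDM16 cells, missed the threshold too (adjusted p = 0.0515). The call of Hoxa9 in sh-PRDM16 cells was lost without untreated replicate 2 (adjusted p = 0.137), treated replicate 1 (0.0784) or treated replicate 2 (0.172). Hoxc6 had 3 probe sets, of which 1427361_at gave a fall like that of the main probe set in sh-scr cells (-0.71, adjusted p = 0.0192), and 1427454_at, near the floor, did not pass (-0.55). The second probe set of Hoxb4, 1451761_at, near the floor, rose with the drug in sh-PRDM16 cells by 0.71 (adjusted p = 0.0416), where the brighter 1460379_at was at 0.20 and did not pass.

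**Figure D3:**
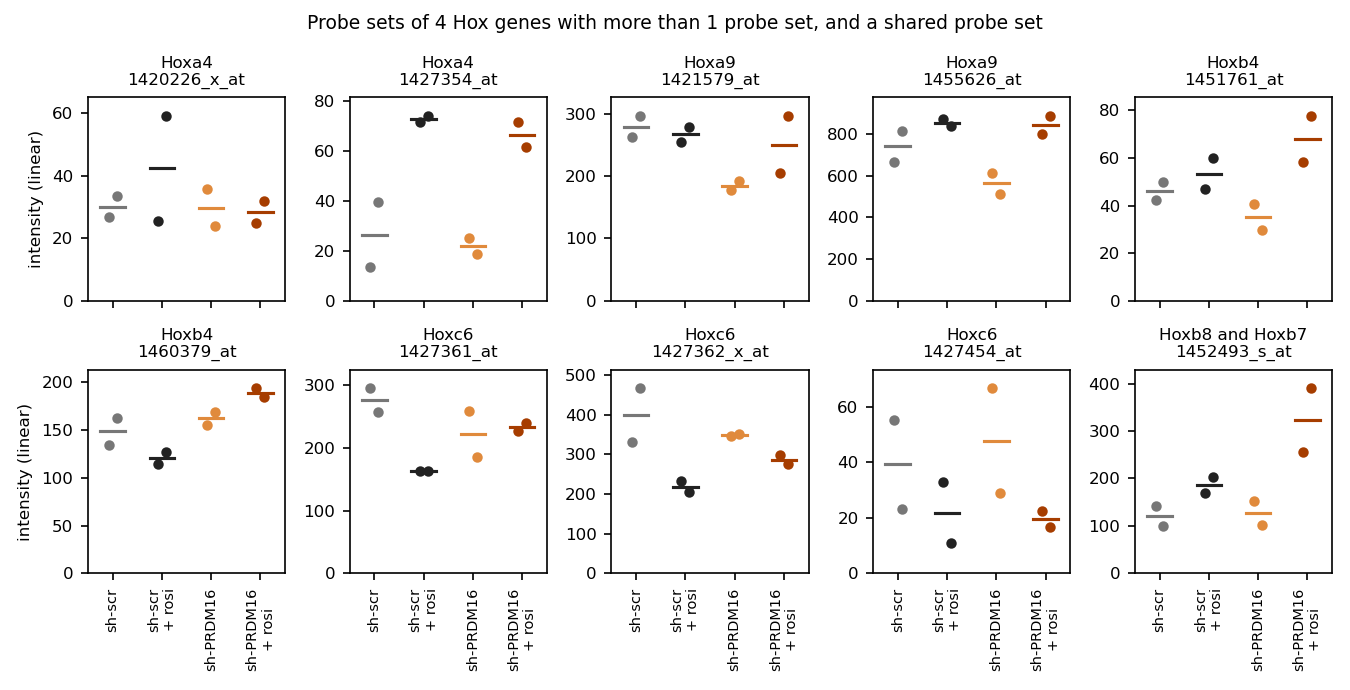
Intensity (linear, from 0) on 8 arrays of the separate probe sets of Hoxa4, Hoxa9, Hoxb4 and Hoxc6 and of a probe set annotated to Hoxb8 and Hoxb7; points are arrays and bars means of 2. Hoxa4 rises with the drug on 1427354_at (13.5 to 39.6 untreated, 61.4 to 74.0 treated) and its groups overlap on 1420226_x_at.

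Without rosiglitazone, sh-PRDM16 and sh-scr cells differed in no Hox gene by the test: 0 of 21 were called by limma (3 at an unadjusted p under 0.05), beside 1.99% of all genes rising, 15.5% falling and 17.5% called in all. By intensity, 6 were lower and 3 higher without overlap, beside 47% and 10.8% of all genes. The median of the 21 was -0.12 and of all genes -0.16. Hoxd9 (-0.49), Hoxa10 (-0.48) and Hoxa9 (-0.38) were the 3 at an unadjusted p under 0.05. After centring, with 21.4% of all genes called (8.8% higher, 12.6% lower), Hoxb9 and Hoxc4 were called as higher, at 0.55 (adjusted p = 0.0284) and 0.45 (0.00835), against 0.36 and 0.27 on the deposited scale.

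With rosiglitazone, Hoxb9 and Hoxb4 were higher in sh-PRDM16 cells. Hoxb9 rose by 0.95 (SE 0.18, adjusted p = 0.00977) and Hoxb4 by 0.59 (SE 0.14, adjusted p = 0.0241). The second Hoxb4 probe set, 1451761_at, was at 0.27 and did not pass (adjusted p = 0.339). These 2 of 21 stand beside 10.6% of all genes that rose, 4.62% that fell and 15.2% called in all. The median of the 21 was 0.18 and of all genes 0.15. By intensity, 8 were higher and 2 lower without overlap, beside 46.5% and 18.2% of all genes. After centring, with 24.6% of all genes called (12.3% each way), Hoxb9 stayed at 0.83 and passed, and Hoxb4 was at 0.46 (adjusted p = 0.0621). The Hoxb9 call was lost without treated sh-scr replicate 2 (0.77, adjusted p = 0.0662) or treated sh-PRDM16 replicate 2 (0.88, 0.0516), and that of Hoxb4 without any 1 of the 4 treated arrays (adjusted p from 0.0773 to 0.106).

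Macrophage and leukocyte markers moved with the shRNA. Their summed intensity was between 4676 and 5133 in untreated and 3005 and 3026 in treated sh-scr arrays, and between 1027 and 1114 in untreated and 827 and 880.2 in treated sh-PRDM16 arrays. Of 7 tested, 5 fell untreated and 6 fell treated with sh-PRDM16. Of 10 measured, Ptprc, Fcgr1, Itgam, Cd3e and Cd79a were near the floor over all arrays. Adipocyte markers were lower too, with 6 of 8 falling untreated and 4 of 8 treated. On the deposited scale, 15.5% of all genes fell and 1.99% rose untreated, and 4.62% fell and 10.6% rose treated. Of smooth muscle and pericyte markers, 1 of 8 rose and 1 fell untreated, and treated 2 rose, Actg2 (1.21) and Cnn1 (1.16), and Cspg4 (-0.92) fell. Their summed intensity with the drug was between 20605 and 21638 in sh-scr and between 26336 and 26680 in sh-PRDM16 arrays. Acta1, the 1 of 8 skeletal muscle genes above the floor, was higher with sh-PRDM16 by 0.78 untreated (adjusted p = 0.0117) and by 1.77 treated (0.000302), while Myod1, Myog, Ckm, Myh4, Tnnt3, Pax7 and Myf5 were near the floor. Of preadipocyte and fibroblast markers 2 of 10 fell untreated and 1 rose treated. After centring, 2 rose and 1 fell untreated and 1 rose and 2 fell treated. The shares of all genes were then 8.8% rising and 12.6% falling untreated, and 12.3% each way treated. Above the floor were 3 of 8 genes for endothelium, of which 0 of 6 tested were called untreated and 1 fell treated, and 0 of 8 for mesothelium and mammary epithelium. Their part in the Hox values was not tested.

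**Figure D4:**
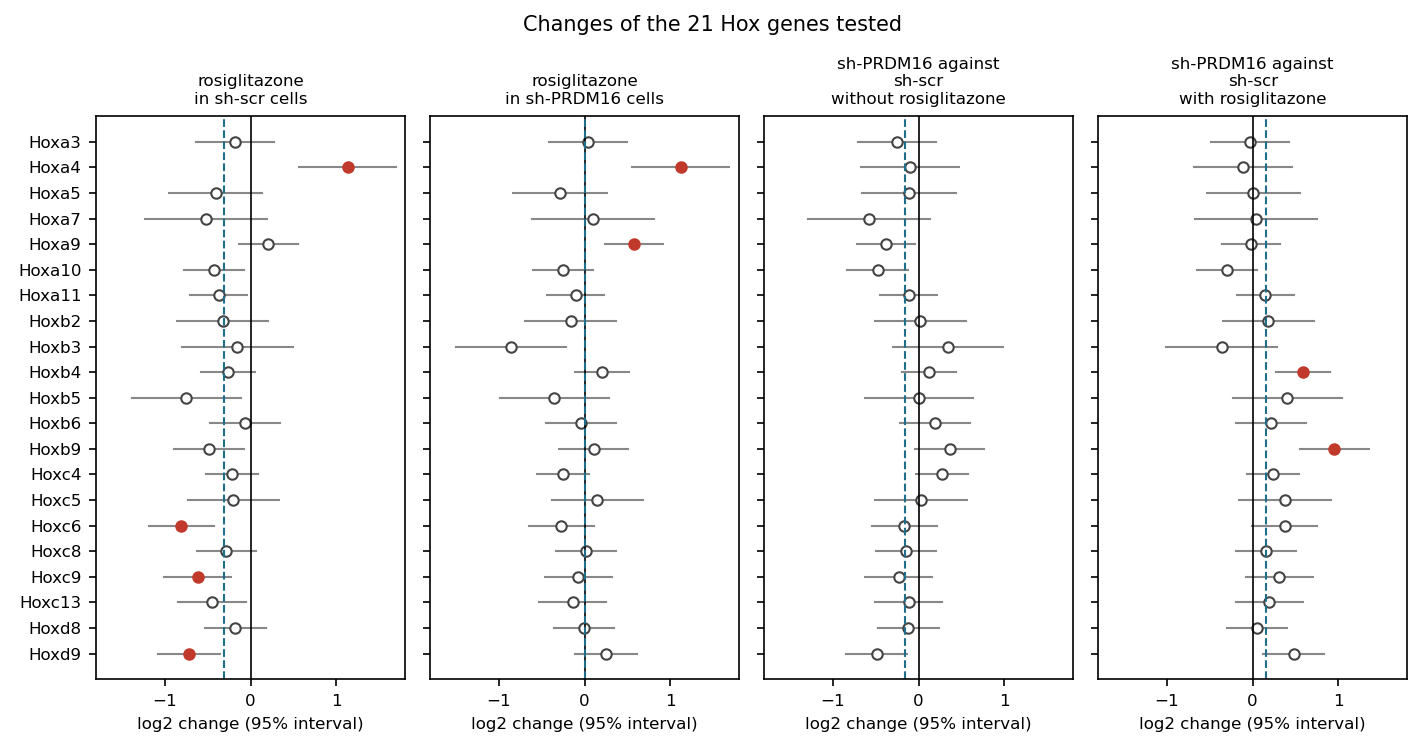
Log2 change (of intensity + 16) of the 21 Hox genes tested in 4 comparisons, with 95% intervals from limma; filled points passed the threshold of 0.05 and the dashed line is the median of all 9294 genes. In sh-scr cells the Hox genes gather around the dashed line at -0.31, and Hoxa4 lies far to its right at 1.13.

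The interaction, the difference between the drug responses of sh-PRDM16 and sh-scr cells, was called for 0 of 21 Hox genes by limma (4 at an unadjusted p under 0.05) and for 0.667% of all genes. It was above 0 for 18 of 21 members with a median of 0.30, beside 0.33 for all genes. The 4 were Hoxd9 (0.97, adjusted p = 0.0891), Hoxb9 (0.59, 0.189), Hoxc6 (0.54, 0.195) and Hoxb4 (0.47, 0.185). After centring these were 0.66, 0.28, 0.23 and 0.16, and 0.0538% of all genes were called (0.0108% above 0, 0.043% below). So a different response of Hoxc6 or Hoxc9 in the lines was not shown, though 1 line's test passed and the other's did not.

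Among the partners of Hox proteins, Meis1, a homeodomain cofactor, fell in both lines. Meis1 read 155 and 165 untreated and 84.5 and 71.2 treated in sh-scr cells, and 165 and 174 untreated and 106 and 107 treated in sh-PRDM16 cells. It fell by 0.91 (SE 0.13, adjusted p = 0.00196) in sh-scr cells and fell by 0.60 (adjusted p = 0.0146) in sh-PRDM16 cells, and after centring the adjusted p was 0.00887 and 0.00825. Of 9 cofactors tested, 0 rose and 4 fell in sh-scr cells, the other three being Pbxip1 (-0.72), Meis3 (-0.52) and Meis2 (-0.47), and Meis1 was the 1 that fell in sh-PRDM16 cells. Of all genes, 32.2% fell in sh-scr and 3.31% in sh-PRDM16 cells. After centring, 2 of the 9 cofactors fell in sh-scr and 2 in sh-PRDM16 cells, beside 11.9% and 9.87% of all genes. Meis3 was near the floor. Neither shRNA comparison called a cofactor on the deposited scale. After centring 3 rose without the drug, beside 8.8% of all genes, and 2 with it, beside 12.3%, with 0 falling.

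Among the chromatin complexes that hold Hox genes on or off, the drug's calls in sh-scr cells were all falls on the deposited scale. In sh-scr cells 8 of 28 Polycomb genes fell with the drug, led by Rnf2 (-0.78), the ubiquitin ligase of the complex, Phc1 (-0.70), Cbx6 (-0.66) and Phc2 (-0.65), and 0 were called in sh-PRDM16 cells. Beside the 32.2% of all genes that fell, and with a median of -0.30 against -0.31 for all genes, this count says nothing of Polycomb genes in particular. With sh-PRDM16, Ezh1 (-0.54) fell without the drug, where 15.5% of all genes did. With the drug 4 rose, beside 10.6% of all genes: Ezh2 (0.68), the methyltransferase, Yaf2 (0.58), Rbbp7 (0.49) and Asxl1 (0.47). After centring, 4 Polycomb genes rose and 1 fell with sh-PRDM16 untreated, beside 8.8% and 12.6% of all genes. Treated, 6 rose, beside 12.3%. With the drug in sh-PRDM16 cells, 2 rose and 2 fell after centring, beside 14.5% and 9.87%. Of 17 trithorax and activator genes, 7 fell in sh-scr cells, against the same 32.2%, among them Kdm6a, which removes the Polycomb mark and read 289 and 311 untreated and 137 and 148 treated. After centring, 2 Polycomb genes rose and 1 fell there, and 1 trithorax gene rose and 3 fell, beside 14.2% and 11.9% of all genes. In sh-PRDM16 cells Aff4 (0.66) alone was called, beside 13.4% of all genes. With sh-PRDM16, 0 were called without the drug, beside 17.5%, and Psip1 (0.53) and Paxip1 rose with it, beside 10.6%. After centring, 1 trithorax gene rose and 2 fell with the drug in sh-PRDM16 cells, beside 14.5% and 9.87%. Against sh-scr, 1 then rose untreated and 3 rose treated, beside 8.8% and 12.3%.

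Retinoic acid sets the anterior limits of Hox expression in the embryo. A list of its enzymes, binding proteins and receptors, together with regulators upstream of Hox genes and response genes, had 14 genes tested, Egr2 and Krt19 among them. With the drug 2 of the 14 rose and 7 fell in sh-scr cells, beside 5.2% and 32.2% of all genes, and 3 rose in sh-PRDM16 cells, beside 10.1%. After centring these were 2 and 4, beside 14.2% and 11.9% of all genes, and 3 with 2 falls, beside 14.5% and 9.87%. The falls included Aldh1a2 (-0.92), which makes retinoic acid, and Rxra (-0.80). Krt19, a keratin with a known retinoic acid response, read 96.0 and 140 untreated and 198.5 and 236.5 treated in sh-scr cells, against 251 and 221 untreated and 864.5 and 783.5 treated in sh-PRDM16 cells. Its drug responses were 0.82 (SE 0.18, adjusted p = 0.0102) and 1.74 (adjusted p = 0.000263). Crabp1, a retinoic acid binding protein, read 155 and 174 in untreated and 176 and 143 in treated sh-scr arrays, against 469 and 426 and then 537.5 and 530.4 in the sh-PRDM16 arrays. Its 4 sh-PRDM16 arrays lay above all sh-scr arrays, with a difference of 1.36 untreated (adjusted p = 0.000409) and 1.65 treated (0.000185). Rxrg, a partner receptor of PPARγ, was dim in untreated sh-PRDM16 cells (9.5 and 7.1) and read between 62.4 and 143 elsewhere.

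Of 57 other genes of body position and limb patterning, 24 were above the floor, such as Tbx15, a marker of some subcutaneous depots, while En1, Wt1, Zic1 and Tcf21 were near it. Of 37 tested, 12 fell with rosiglitazone in sh-scr cells, led by Foxc1 (-1.15), Foxc2 (-0.84), Meox2 (-0.82) and Twist1 (-0.79), and 0 rose. That count is close to the 32.2% of all genes that fell. After centring, 1 rose and 4 fell there, beside 14.2% and 11.9% of all genes. In sh-PRDM16 cells 3 then rose and 4 fell, beside 14.5% and 9.87%. On the deposited scale Lhx2 (0.90), Tbx5 (0.79) and Msx2 (0.46) rose in sh-PRDM16 cells, beside 10.1% of all genes, and 0 fell. With sh-PRDM16, Isl1 (0.76) and Thbd (0.75) rose and Tbx5 (-0.68) fell without the drug, beside 1.99% and 15.5% of all genes. Thbd encodes thrombomodulin and is not a patterning factor. With the drug 7 rose, beside 10.6% of all genes, led by Lhx2 (1.07), Isl1 (0.77), Nr2f1 (0.63) and Foxc2 (0.56). Lhx2, Isl1 and Msx2 were near the floor. Tbx5, a forelimb gene near the floor, read 54.0 and 54.7 untreated and 32.7 and 41.1 treated in sh-scr cells, and 31.7 and 24.4 untreated and 55.4 and 65.1 treated in sh-PRDM16 cells. It was lower with the drug in sh-scr cells and higher in sh-PRDM16 cells, and its interaction of 1.21 passed (adjusted p = 0.0415), but not after centring (0.0939).

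Genes that flank the clusters gave changes of their own. Snx10, a sorting nexin on the flank of the Hoxa cluster, read 971 and 1114 untreated and 1699 and 1642 treated in sh-scr cells. In sh-PRDM16 cells Snx10 read 519 and 458.5 untreated and 1213 and 1392 treated. It rose with the drug by 0.68 (SE 0.14, adjusted p = 0.00863) and by 1.38 (adjusted p = 0.000248), and was lower by a log2 change of -1.07 with sh-PRDM16 in untreated cells. Hibadh, a valine breakdown enzyme on the flank of the same cluster, rose in sh-PRDM16 cells by 1.16. Of 16 flanking genes, 2 rose and 6 fell in sh-scr cells, beside 5.2% and 32.2% of all genes, and 3 rose in sh-PRDM16 cells, beside 10.1%. With sh-PRDM16, 6 fell untreated, beside 15.5% of all genes, and 1 treated, beside 4.62%: Nfe2l1 (-0.76), on the flank of the Hoxb cluster. After centring, 6 of the 16 rose and 1 fell in sh-scr cells, beside 14.2% and 11.9% of all genes. The calls there thus turned with the scaling, while 8 of the 16 were higher and 8 lower on either scale.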

How the data were processed

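RNA was measured on Affymetrix mouse 430A_2 arrays, 2 per group. Per the labels' protocols, RNA was isolated with Trizol and copied from an oligo-dT primer into biotin-labelled cRNA. The authors deposited intensity values on a linear scale, from 0.1 to 22736. The summarization software and scaling were not given in the sources used here. Between 22.0% and 25.2% of values on an array were below 16. Samples were grouped by title. Genes came from the platform annotation: 20380 of 22690 probe sets had 1 gene, 691 several, 1555 none listed, and 64 were controls. Only the first were named. Of 12393 genes, 12369 matched RefSeq (0 symbols changed).

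Each gene was represented by the brightest of its probe sets on average, and the lowest 25% of genes were left out, leaving 9294. limma 3.58.1 (R 4.3.3) was fitted to log2(intensity + 16) on all 8 arrays with group means (4 residual and 5.31 prior degrees of freedom, median SE 0.15). Tests were two-sided, adjusted by Benjamini-Hochberg over all genes tested, with a threshold of 0.05, and were tested on simulated data. "Centred" means each array's median was subtracted. Array medians differed by at most log2 0.38. Named were every Hox gene above the floor or past the threshold, and up to 4 genes of other lists by size of change, with a few more, such as Tbx15, Tbx5, Krt19, Crabp1, Rxrg and Snx10, chosen for their per-array values after these were seen. The members and lists were chosen with earlier results of these data known. The small number of arrays limits the precision. Alternatives were other scalings, pseudocounts of 1 and 64, other filters, the mean of probe sets, a replicate block and leaving out each array.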

Additional observations from a re-analysis of the deposited data

Results flagged for a closer look

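By intensity on the deposited scale, Hoxb4 and Hoxd9 were lower with rosiglitazone in sh-scr cells and higher in sh-PRDM16 cells, without overlap of treated and untreated arrays in either line. Of these 4 changes, the fall of Hoxd9 in sh-scr cells (-0.72, adjusted p = 0.0107 by limma) passed the test, while Hoxd9 in sh-PRDM16 cells (0.25, 0.355) and Hoxb4 in either line (-0.27, 0.152, and 0.20, 0.40) did not. After centring Hoxb4 was at 0.03 and 0.18, and its dimmer probe set 1451761_at was at 0.15 and 0.71, so that the opposite directions of Hoxb4 depend on the scaling and the probe set. For Hoxb4 the response in sh-PRDM16 cells minus that in sh-scr cells was 0.47 in log2 units (interaction adjusted p = 0.185 by limma, 0.16 after centring on array medians). For Hoxd9 it was 0.97 (adjusted p = 0.0891, 0.66 after centring). Neither difference passed the test.

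Probe set 1452493_s_at, annotated to both Hoxb8 and Hoxb7 and used in no comparison, read 142 and 99.4 in untreated sh-scr arrays, against a mean of 187 in treated sh-scr arrays (169 and 204). Its mean was 323 in treated sh-PRDM16 arrays (256 and 390.3), against 152 and 102 in untreated ones. The probe set with Hoxb7 alone, 1427494_at, read between 1.2 and 8.3 throughout.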

How the results depend on the processing

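The counts of Hox genes called were small and moved with the settings. Rosiglitazone in sh-scr cells called 4, with 2 after median centring or quantile normalization (all rises), 7 with a pseudocount of 64, and 2 to 7 with an array left out (2 without untreated sh-scr replicate 1 or treated sh-scr replicate 2, 7 without untreated sh-PRDM16 replicate 2). In sh-PRDM16 cells the 2 calls became 0 with a pseudocount of 1, no filter or the mean of probe sets, 1 with the dimmest 50% left out, and 0 to 2 with an array left out. Untreated, sh-PRDM16 against sh-scr gave 0, but 2 with centring, quantile normalization or a pseudocount of 64, 3 with the dimmest 50% left out and 0 to 1 with an array left out. Treated, the 2 became 1 with centring, quantile normalization, no filter or the mean of probe sets, and 0 to 2 with an array left out. The interaction gave 0, but 2 (Hoxb9 and Hoxc9) with the dimmest 50% left out. A floor of 32 gave 20 genes above it in place of 13, and no left-out array changed 13. The replicate block gave 5, 3, 0, 2 and 0 calls in these comparisons and the interaction. Same-numbered arrays did not deviate together (correlations from -0.02 to 0.05), so the block was not used.

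For Hoxc8, Hoxc9 and each Hox gene in each comparison that called it under some setting, 420 of 511 alternative values kept direction and side of the threshold, 37 passed where the reported fit did not, 40 no longer passed, and 14 changed sign, all of values that did not pass under that alternative. In sh-scr cells with rosiglitazone these were Hoxc8 at 0.012 (centred) and Hoxa9 at -0.060 (1421579_at). In sh-PRDM16 cells they were Hoxc8 at -0.063 (quantile) and between -0.15 and 0.19 with an array left out (below 0 without untreated or treated sh-PRDM16 replicate 2), Hoxc9 between -0.17 and 0.029 with an array left out (above 0 without treated replicate 1) and Hoxa4 at -0.034 (1420226_x_at). Between lines they were Hoxc8 untreated at 0.039 (centred), 0.067 (quantile) and between -0.31 and 0.022 with an array left out (above 0 without untreated sh-PRDM16 replicate 2), and treated Hoxb3 between -0.91 and 0.18 (above 0 without treated sh-PRDM16 replicate 2) and Hoxc6 at -0.028 (1427454_at). In the interaction Hoxc8 was at -0.011 (centred) and -0.036 (quantile). The cause was not tested.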
